A study of Homo sapiens with 28 samples.

Results

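Transcripts of 7 genes were followed in melanoma cells given a BET bromodomain inhibitor: the BET genes BRD2 and BRD3, and NSD3, JMJD6, MED1, MLLT3 and ZMYND8, whose products work with BET proteins or beside them on chromatin. They were chosen by gene symbol, and 14 probe sets of 53617 on the array carried 1 of these symbols: 8 for BRD2 and 1 for each of the 6 others. The 7 genes stand among 22395 named genes, and all 7 passed a filter on dim genes (log2 intensity above 5 on at least 4 arrays), as 9291 genes did. All groups came from CHL-1, a long-established line derived from a human melanoma. Its cells were treated with BAY1238097, which blocks the bromodomains of BET proteins, or with its solvent DMSO, and the groups were DMSO for 4 h (4 arrays), 75 nM for 4 h (5 arrays), 468 nM for 4 h (5 arrays), DMSO for 24 h (4 arrays), 75 nM for 24 h (5 arrays) and 468 nM for 24 h (5 arrays). The comparisons ask, per the submitters' design text, how transcript levels change with dose and time after BET inhibition. Whether the arrays of 1 group represent separate cultures is not given in the labels, so the spread behind each p-value may be technical.

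BET proteins carry a pair of bromodomains that bind acetylated lysines of histones, and an extraterminal (ET) domain that binds other proteins. Through these contacts they bring elongation factors, histone modifiers and Mediator to promoters and enhancers, and BET inhibitors displace them from acetylated chromatin. Among the genes described here, NSD3 is a histone H3K36 methyltransferase and JMJD6 a JmjC-domain lysyl hydroxylase, and both are known to bind the ET domain. MED1 is a Mediator subunit that contacts nuclear receptors, MLLT3 (AF9) reads acylated histones with its YEATS domain and belongs to the super elongation complex, and ZMYND8 is a bromodomain protein that reads histone marks and associates with corepressors.

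Promoters are shown for BRD2, ZMYND8 and MLLT3, whose transcripts carry most of the results. RefSeq (GRCh38.p14) gave an upstream sequence for 5 of the 7 genes, and the 250 bases before the outermost transcript start of 3 of them are printed 5′ to 3′ on the gene's own strand. BRD2 is from chr6:32968344-32968593 on the + strand, ZMYND8 from chr20:47356700-47356949 on the - strand and MLLT3 from chr9:20622500-20622749 on the - strand. Capitals mark GC boxes (GGGCGG, the core bound by SP-family factors) and CCAAT boxes (CCAAT, the core bound by NF-Y), on either strand and with overlapping matches counted.
BRD2: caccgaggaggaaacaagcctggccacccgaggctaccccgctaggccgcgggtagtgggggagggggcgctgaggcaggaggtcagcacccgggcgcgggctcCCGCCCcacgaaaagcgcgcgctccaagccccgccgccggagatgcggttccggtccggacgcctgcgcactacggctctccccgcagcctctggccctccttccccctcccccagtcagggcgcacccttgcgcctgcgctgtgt
ZMYND8: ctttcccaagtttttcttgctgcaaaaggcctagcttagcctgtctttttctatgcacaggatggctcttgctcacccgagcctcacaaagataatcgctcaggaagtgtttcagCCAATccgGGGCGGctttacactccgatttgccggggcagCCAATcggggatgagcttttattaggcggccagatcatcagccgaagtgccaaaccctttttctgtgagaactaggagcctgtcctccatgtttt
MLLT3: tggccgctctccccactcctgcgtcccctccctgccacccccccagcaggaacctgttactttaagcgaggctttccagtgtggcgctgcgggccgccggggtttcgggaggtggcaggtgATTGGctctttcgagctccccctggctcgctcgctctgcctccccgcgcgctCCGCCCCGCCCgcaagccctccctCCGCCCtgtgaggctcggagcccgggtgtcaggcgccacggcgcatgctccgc
The BRD2 window held 1 GC box, 146 bases before the start, and was 74.0% G or C. The MLLT3 window, at 72.0% G or C, held 3 GC boxes and 1 CCAAT box. The ZMYND8 window was 50.8% G or C and held 1 GC box and 2 CCAAT boxes. Among 35116 RefSeq promoters of the same length, 42.6% held a GC box and 32.0% a CCAAT box. The E-box CACGTG (6.34% of all promoters) and the TATA box TATAAA (10.7%) were in none of these 3 windows. RefSeq also gave further starts for BRD2 and ZMYND8, whose windows are not printed. For BRD2 these windows were 62.4%, 47.6% and 66.4% G or C, with 1, 0 and 1 GC boxes. The further ZMYND8 window was 47.2% G or C, with 0 GC boxes and 0 CCAAT boxes. Which start these cells use was not tested. These matches describe letters only.

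Median log2 intensity lay between 2.44 and 2.49 on every array, and correlation with the median profile of the group was lowest at 0.967, on 1 of the 468 nM arrays at 24 h. Of the melanocyte lineage markers, SOX10 (mean log2 9.55) and PAX3 (7.31) were bright, while MITF, PMEL, MLANA, TYR and TYRP1 had mean log2 intensities between 1.05 and 2.95, so 2 of 8 listed markers passed the filter. Of the undifferentiated melanoma markers 3 of 6 passed, with AXL at 8.12, and no listed keratinocyte or endothelial marker passed. FBLN1 was the only 1 of 6 fibroblast markers to pass and CD68 the only 1 of 6 leukocyte markers. CD68 was higher than in DMSO at 4 h, by 0.71 ± 0.17 log2 units (SE) at 75 nM and 0.81 ± 0.17 at 468 nM. It averaged 4.43 in DMSO at 4 h, below the filter value of 5, and 5.14 and 5.24 at these doses. CD68 may thus have passed the filter through the groups where it was higher, so this change is a description only. PTPRC, which defines leukocytes, averaged 2.91. At 468 nM SOX10 stood at -0.73 ± 0.13 log2 units against DMSO after 4 h and 0.58 ± 0.13 after 24 h, and CD44 at -1.3 ± 0.17 after 24 h (limma adjusted p = 0.00043, 0.000851 and 5.67e-07). CD44 averaged 4.76 in DMSO and 3.46 at 468 nM after 24 h, both below the filter value. The part of these markers in the results was not tested.

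At 4 h, 2 of the 7 genes moved at either dose, and they were the same genes: BRD2 rose and ZMYND8 fell. The other 5 genes did not pass the test at 4 h. At 24 h none passed in limma at 75 nM (4 of 7 had an unadjusted p below 0.05), and at 468 nM 5 passed: BRD2, BRD3 and MLLT3 rose, and JMJD6 and ZMYND8 fell. NSD3 and MED1 passed in none of these comparisons. The share of all tested genes with an unadjusted p below 0.05 was not counted, so the 4 of 7 cannot be set against it. A gene is called when limma's Benjamini-Hochberg adjusted p over the 9291 tested genes is below 0.05. Of all tested genes, 0.678% were called at 75 nM and 10.9% at 468 nM after 4 h, and 0.872% at 75 nM and 45.6% at 468 nM after 24 h. At 468 nM, 3.97% were called higher and 6.94% lower after 4 h, and 20.4% higher and 25.1% lower after 24 h. At 468 nM after 24 h the median change of the 7 genes was 0.04 log2 units, against -0.02 over all tested genes. The array data are bulk, so fewer cells carrying a transcript and less of it per cell cannot be told apart.

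**Figure D1:**
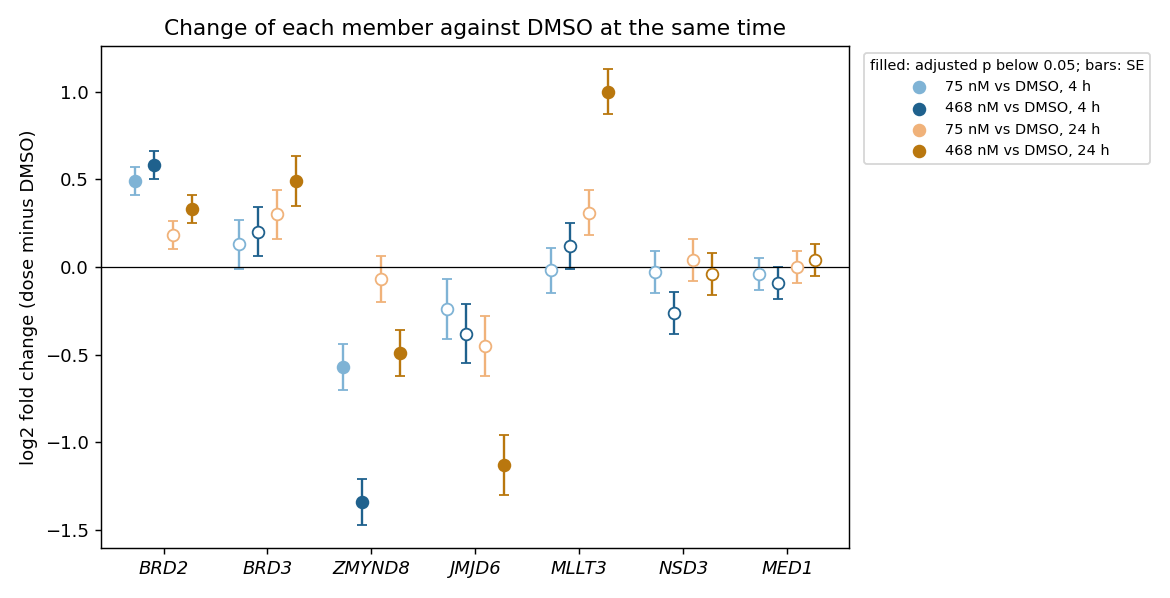
Log2 fold change of each gene against DMSO of the same time (y axis, log2 units), with bars for the standard error of limma's fit and filled points for adjusted p below 0.05. BRD2 and ZMYND8 have filled points at both doses after 4 h, and JMJD6 and MLLT3 have them only at 468 nM after 24 h, at -1.13 and 1.

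BRD2, the ubiquitously expressed BET protein, was higher at both doses after 4 h and at 468 nM after 24 h. Its brightest probe set (17035950) read 9.97, 10.03, 9.84 and 9.73 log2 intensity on the DMSO arrays at 4 h, 10.3, 10.48, 10.43, 10.37 and 10.32 at 75 nM, and 10.38, 10.5, 10.5, 10.41 and 10.57 at 468 nM. Every treated array lay above every DMSO array, and the doses overlapped. In limma the change at 75 nM was 0.49 ± 0.08 log2 units (SE; 1.41-fold, adjusted p = 0.00108) and at 468 nM 0.58 ± 0.08 (1.49-fold, adjusted p = 7.8e-06). The step between the doses, 0.09 log2 units higher at 468 nM, had a 95% interval of -0.06 to 0.24 and did not pass (limma adjusted p = 0.781). With only the compared groups in the fit the 75 nM call was lost (adjusted p = 0.0672), as it was with arrays levelled on reference genes (0.0634).

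At 24 h BRD2 read 9.61, 9.78, 9.7 and 9.77 on the DMSO arrays, 9.88, 9.96, 9.83, 9.75 and 10.03 at 75 nM, and 10.04, 10.09, 10.09, 9.92 and 10.08 at 468 nM. All 468 nM arrays exceeded all DMSO arrays, and 1 of the 75 nM arrays lay inside the DMSO range. The change was 0.33 ± 0.08 log2 units at 468 nM (1.26-fold, limma adjusted p = 0.00122) and 0.18 ± 0.08 at 75 nM (adjusted p = 0.258). Levelling the arrays on reference genes ended the 468 nM call (adjusted p = 0.0884). The 468 nM effect was 0.25 ± 0.11 log2 units smaller at 24 h than at 4 h, which did not pass (limma adjusted p = 0.106). With the mean of all BRD2 probe sets this contrast was -0.39 and passed (limma adjusted p = 0.0317). That mean includes a dim set that failed the filter (17035969), at -1.07 log2 units. The 7 other sets lay between -0.51 and -0.21, and none of them passed when tested by itself. Ordered by level, 468 nM and 75 nM at 4 h stood highest and apart from the rest, and the neighbours among the other 4 groups (468 nM at 24 h, DMSO at 4 h, 75 nM at 24 h, DMSO at 24 h) overlapped.

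**Figure D2:**
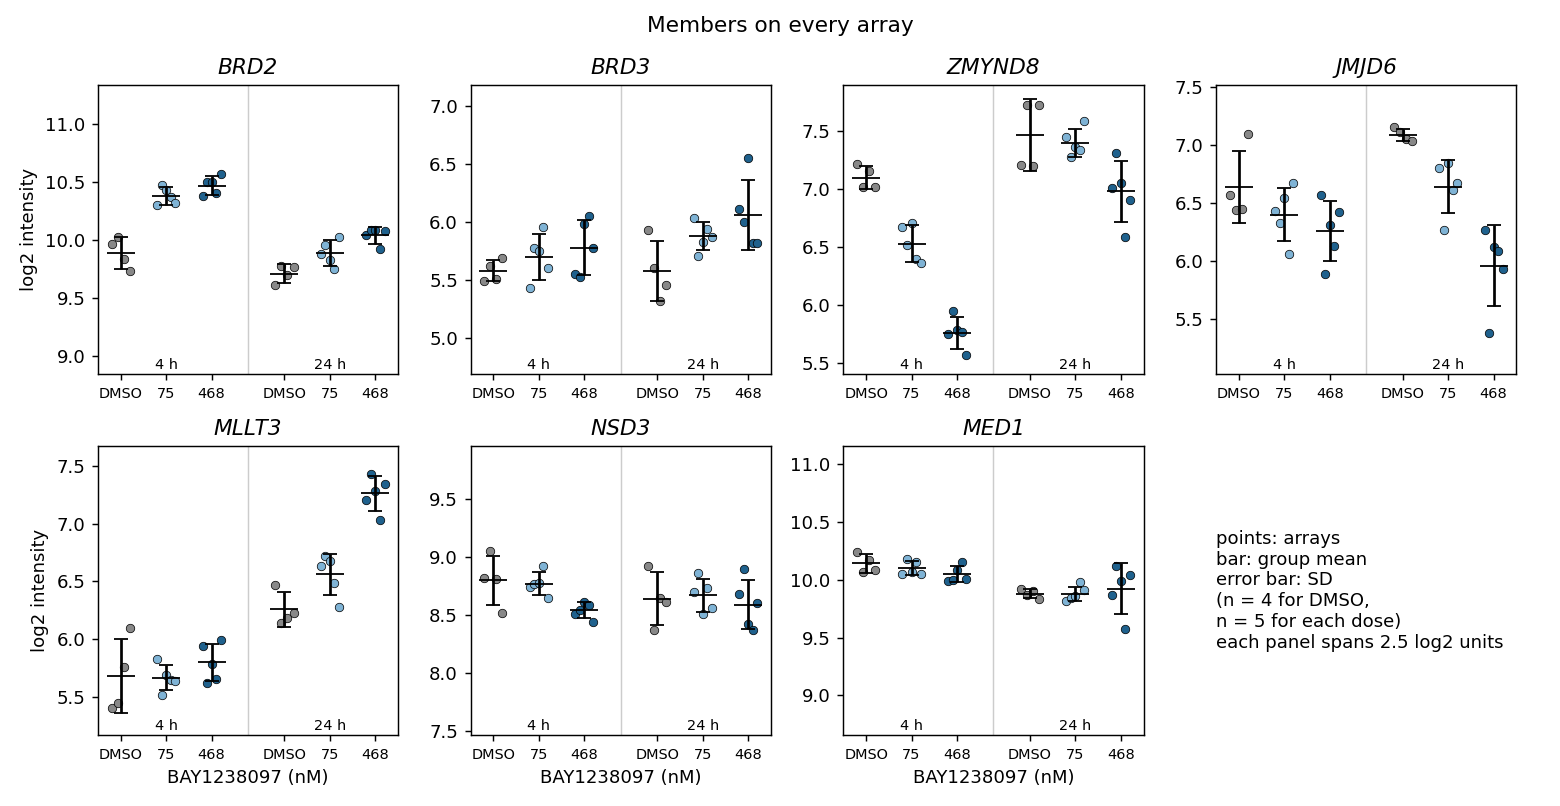
Log2 intensity (y axis) of each gene on every array by dose in nM, with 4 h left and 24 h right in each panel; points are arrays, and bars are the group mean and SD. For BRD2 all treated arrays at 4 h lie above the DMSO arrays, for ZMYND8 all lie below, and for MLLT3 the 468 nM arrays at 24 h, between 7.03 and 7.43, stand above all other arrays.

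The 8 BRD2 probe sets fell into 7 bright sets, with mean log2 intensities of 7.22 to 10.08, and 1 dim set (17035969) at 3.92, which was above 5 on 2 arrays. Of the 7 bright sets, 5 were higher at 75 nM after 4 h, 6 at 468 nM after 4 h, none at 75 nM after 24 h (4 at an unadjusted p below 0.05) and 5 at 468 nM after 24 h, with each probe set tested by itself in limma. Over all 14688 probe sets tested, 0.211%, 3.1%, 0.272% and 17.6% were called higher in these comparisons, in the same order. The bright sets read 1 gene on the same arrays, so their counts are not independent results to weigh against these shares. Changes of the bright sets ranged over 0.40 to 0.50 log2 units at 75 nM and 0.24 to 0.83 at 468 nM after 4 h, and over -0.02 to 0.39 at 468 nM after 24 h. Between the doses at 24 h, 3 of the 7 were higher at 468 nM, against 10.2% of all probe sets. Without a filter, no bright set passed at 75 nM after 4 h (limma adjusted p from 0.126 to 0.945) or between the doses at 24 h (0.317 to 0.992). At 468 nM after 24 h, sets 17035950 (adjusted p = 0.0505) and 17031209 (0.0804) lost the call without a filter. The bright set 17007326 was called in no comparison, at 0.24 log2 units (adjusted p = 0.751) for 468 nM after 4 h and -0.02 (adjusted p = 0.966) after 24 h in limma. Its values correlated with those of the brightest set at r = 0.46 over the 28 arrays, while the next 3 sets reached 0.96.

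The dim BRD2 set read 4.83, 4.3, 5.12, 5.03 and 4.12 at 468 nM after 4 h, against 4.18, 3, 3.21 and 3.32 in DMSO. It was 1.25 ± 0.29 log2 units higher (limma without a filter, adjusted p = 0.0265), with 1 DMSO array inside the treated range. At the other dose and time points it did not pass, with changes of 0.59, 0.56 and 0.18 log2 units at 75 nM after 4 h, 75 nM after 24 h and 468 nM after 24 h. A further 6 probe sets carry the platform symbol BRD2-IT1 and hold identical values on all 28 arrays, so they count as 1 measurement. BRD2-IT1 was dim (mean log2 3.66) and read 3.46, 3.4, 2, 3.52 and 3.52 at 468 nM after 4 h, against 3.85, 3.82, 4.37 and 3.98 in DMSO. All treated arrays lay below all DMSO arrays, but the difference of -0.82 ± 0.31 log2 units did not pass (limma without a filter, adjusted p = 0.333). RefSeq's gene table lists BRD2-IT1 as a synonym of BRD2, and the platform's separate symbol was kept here. Counted once as BRD2 in a mean of all sets, the BRD2-IT1 value left the 4 h changes called, at 0.51 log2 units for 468 nM (limma adjusted p = 0.000152) and 0.40 for 75 nM (adjusted p = 0.0206). Counted 6 times, it took them to 0.04 (adjusted p = 0.925) and 0.17 (adjusted p = 0.838), so there the repeats of 1 measurement set the value; both means were chosen after seeing the data.

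**Figure D3:**
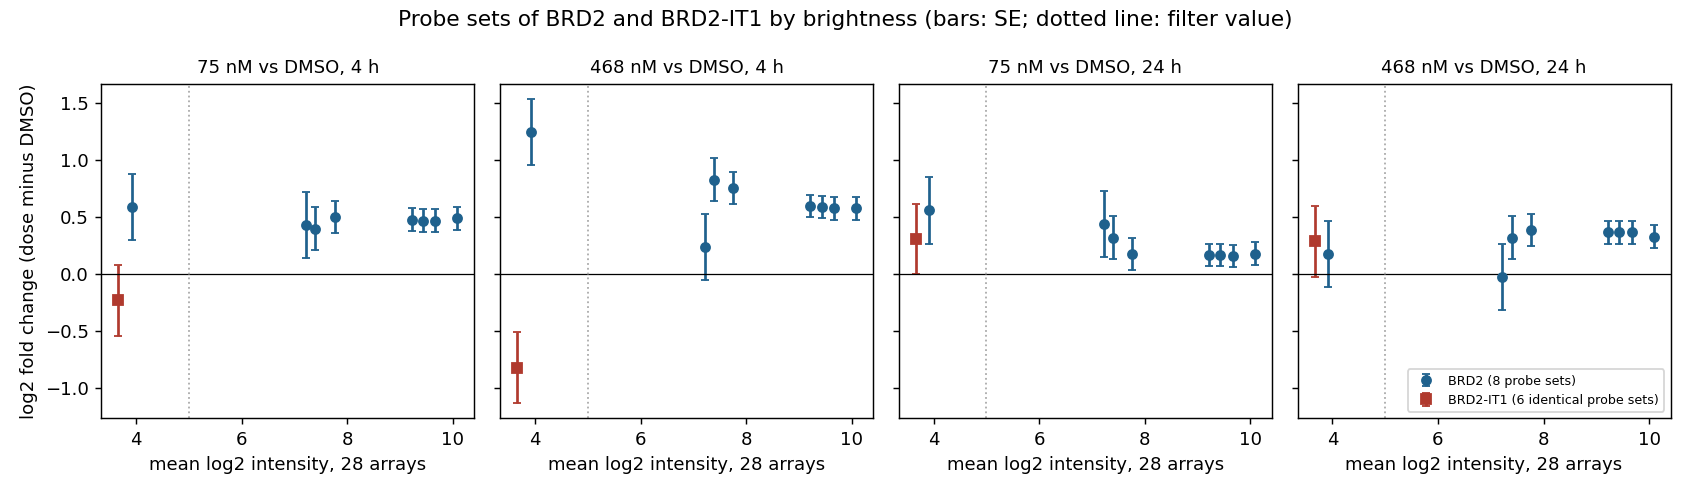
Log2 fold change against DMSO (y axis, log2 units, bars are SE) of the BRD2 and BRD2-IT1 probe sets by mean log2 intensity over 28 arrays (x axis); the dotted line is the filter value of 5, and fits are without a filter. The bright BRD2 sets lie above 0 at both doses after 4 h, while BRD2-IT1 lies at -0.82 at 468 nM after 4 h, opposite to the dim BRD2 set at 1.25.

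BRD3, the other BET gene measured here, was called higher at 468 nM after 24 h and in no other comparison. It read 5.93, 5.6, 5.32 and 5.46 log2 intensity in DMSO at 24 h, 6.04, 5.71, 5.83, 5.94 and 5.87 at 75 nM, and 6.11, 6, 6.55, 5.82 and 5.82 at 468 nM. Of the DMSO arrays, 1 lay inside the range of each dose. BRD3 rose by 0.49 ± 0.14 log2 units at 468 nM (1.4-fold, limma adjusted p = 0.00774), and its change at 75 nM was 0.30 ± 0.14 (adjusted p = 0.306). The 468 nM call was lost with only the compared groups in the fit (adjusted p = 0.0549) and with arrays levelled on reference genes (0.0654).
At 4 h BRD3 averaged 5.58 ± 0.09 in DMSO, 5.70 ± 0.20 at 75 nM and 5.78 ± 0.24 at 468 nM (SD, n = 4, 5 and 5), and neither dose passed. Whether BRD2 moved more than BRD3 was tested on the array-wise difference of their log2 values with exact two-sided permutation tests in 4 comparisons, where the smallest possible p is 0.0159. The difference of 0.36 log2 units at 75 nM after 4 h (exact p = 0.0476) and of 0.38 at 468 nM (exact p = 0.0635) both had an adjusted p of 0.127. At 24 h the differences were -0.13 at 75 nM and -0.15 at 468 nM, each with adjusted exact p = 0.492. No difference between the 2 BET genes passed.

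ZMYND8 fell at 4 h and the fall grew with dose. It read 7.22, 7.02, 7.16 and 7.02 log2 intensity in DMSO, 6.67, 6.52, 6.71, 6.4 and 6.36 at 75 nM, and 5.75, 5.95, 5.78, 5.77 and 5.57 at 468 nM. No group overlapped another. In limma the change was -0.57 ± 0.13 log2 units at 75 nM (1.49-fold lower, adjusted p = 0.0313) and -1.34 ± 0.13 at 468 nM (2.53-fold lower, adjusted p = 5.58e-08), and 468 nM lay 0.77 ± 0.12 log2 units below 75 nM (adjusted p = 0.000438). The 75 nM call sat close to the threshold: it was lost without each of the 4 DMSO arrays in turn (adjusted p between 0.0599 and 0.136), without replicates 2, 4 or 5 of 75 nM (0.0656, 0.0869 and 0.083), without a filter (0.152), with only the compared groups (0.0606) and with reference-gene levelling (0.141).
At 24 h ZMYND8 read 7.21, 7.73, 7.2 and 7.73 in DMSO, 7.45, 7.28, 7.36, 7.34 and 7.59 at 75 nM, and 7.01, 7.31, 7.05, 6.59 and 6.91 at 468 nM. The 75 nM arrays lay inside the DMSO range, and 1 of the 468 nM arrays reached into it. The change was -0.49 ± 0.13 log2 units at 468 nM (limma adjusted p = 0.00316, or 0.0504 with only the compared groups). At 75 nM it was -0.07 ± 0.13 (adjusted p = 0.848). The step from 75 nM to 468 nM was -0.43 ± 0.12 log2 units (limma adjusted p = 0.00949), with overlapping arrays, and 30.8% of all tested genes were called for it. The 468 nM effect was 0.85 ± 0.18 log2 units less negative at 24 h than at 4 h (limma adjusted p = 0.00151), among 23.5% of all tested genes called for that contrast. The same contrast at 75 nM was 0.51 ± 0.18 and did not pass (adjusted p = 0.542), with 0.0323% of genes called.

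JMJD6 fell at 468 nM after 24 h. It read 7.16, 7.11, 7.05 and 7.04 log2 intensity in DMSO, 6.8, 6.27, 6.85, 6.61 and 6.67 at 75 nM, and 6.27, 5.38, 6.12, 6.09 and 5.93 at 468 nM. Every treated array lay below every DMSO array. At 468 nM the change was -1.13 ± 0.17 log2 units (2.19-fold lower, limma adjusted p = 5.51e-06), and at 75 nM -0.45 ± 0.17, which did not pass (adjusted p = 0.19). Against 75 nM, 468 nM was 0.68 ± 0.16 log2 units lower (limma adjusted p = 0.00186). At 24 h the 468 nM to 75 nM contrast called 30.8% of all tested genes, and 3 of the 7 genes here.
At 4 h JMJD6 read 6.57, 6.44, 6.45 and 7.1 in DMSO, 6.43, 6.33, 6.54, 6.06 and 6.67 at 75 nM, and 6.57, 5.89, 6.31, 6.13 and 6.42 at 468 nM. The last DMSO array stood above the others and all 3 groups overlapped, with changes of -0.24 ± 0.17 and -0.38 ± 0.17 log2 units that did not pass. From 4 h to 24 h the mean of JMJD6 went from 6.64 to 7.09 in DMSO and from 6.26 to 5.96 at 468 nM. The DMSO change of 0.45 ± 0.18 log2 units did not pass (limma adjusted p = 0.129). The 468 nM effect at 24 h differed from that at 4 h by -0.75 ± 0.24 log2 units (limma adjusted p = 0.0231, among 23.5% of all tested genes). That call was lost without replicate 2 or 3 of DMSO at 4 h (adjusted p = 0.0534 and 0.0511), without a filter (0.0749) and with reference-gene levelling (0.0597).

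MLLT3 rose at 468 nM after 24 h and was not called at 4 h. It read 6.47, 6.14, 6.18 and 6.23 log2 intensity in DMSO at 24 h, 6.63, 6.72, 6.68, 6.49 and 6.28 at 75 nM, and 7.2, 7.43, 7.28, 7.03 and 7.34 at 468 nM. The 468 nM arrays stood above all others, and the 75 nM arrays overlapped DMSO. In limma the change was 1 ± 0.13 log2 units at 468 nM (2-fold, adjusted p = 4.94e-07) and 0.31 ± 0.13 at 75 nM (adjusted p = 0.23), and 468 nM exceeded 75 nM by 0.69 ± 0.12 (adjusted p = 6.8e-05).
At 4 h MLLT3 read 5.41, 5.45, 5.76 and 6.1 in DMSO, 5.83, 5.52, 5.69, 5.65 and 5.64 at 75 nM, and 5.94, 5.62, 5.79, 5.66 and 5.99 at 468 nM. The 3 groups overlapped, and the changes of -0.02 ± 0.13 and 0.12 ± 0.13 log2 units did not pass. The 468 nM effect was 0.88 ± 0.18 log2 units larger at 24 h than at 4 h (limma adjusted p = 0.000753, among 23.5% of all tested genes). MLLT3 also moved between the DMSO groups, where 24 h was 0.57 ± 0.13 log2 units above 4 h (limma adjusted p = 0.0137), in a contrast that called 5.23% of all genes. This last call was lost without replicate 1 or 2 of DMSO at 4 h (adjusted p = 0.0613 and 0.0535), without a filter (0.0694) and with only the compared groups (0.0948).

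NSD3 and MED1 did not pass the test in any comparison at equal array weights. NSD3 averaged 8.80 ± 0.21 log2 intensity in DMSO, 8.77 ± 0.10 at 75 nM and 8.54 ± 0.07 at 468 nM after 4 h (SD, n = 4, 5 and 5), and 8.64 ± 0.23, 8.67 ± 0.14 and 8.59 ± 0.21 after 24 h. Its largest change against DMSO was -0.26 log2 units at 468 nM after 4 h (95% interval -0.50 to -0.02, limma adjusted p = 0.168). The 468 nM arrays at 4 h, between 8.44 and 8.61, all lay below the 75 nM arrays, between 8.65 and 8.92, but that step of -0.23 log2 units did not pass (adjusted p = 0.403), and 2.56% of all tested genes were called for it.
MED1 averaged 10.14 ± 0.08 in DMSO, 10.10 ± 0.06 at 75 nM and 10.05 ± 0.07 at 468 nM after 4 h, and 9.88 ± 0.04, 9.88 ± 0.06 and 9.92 ± 0.22 after 24 h. Its changes against DMSO lay between -0.09 and 0.04 log2 units, with 95% intervals of -0.27 to 0.09 at 468 nM after 4 h and -0.14 to 0.21 after 24 h. Between the DMSO groups MED1 was 0.26 log2 units lower at 24 h, without overlap of the arrays, and did not pass (limma adjusted p = 0.0902), while with array weights it did (adjusted p = 0.0352).

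In the order of group levels, neighbouring groups of BRD3, NSD3, JMJD6 and MED1 overlapped throughout. MLLT3 had 468 nM at 24 h apart at the top, the other 24 h groups next and the 4 h groups at the bottom. ZMYND8 had 468 nM at 4 h apart at the bottom, and DMSO and 75 nM at 24 h together at the top. As a description over the 28 arrays, which share groups and scaling, BRD2 and ZMYND8 correlated at r = -0.83, BRD2 and JMJD6 at -0.55, BRD3 and MLLT3 at 0.53, and BRD2 and BRD3 at 0.09.
Of the other tested genes, the closest to BRD2 over the 28 arrays were BAIAP2 (r = 0.92), MIR3143 (0.9) and RNF19B (0.89). For ZMYND8 they were PCDH18 (0.94), WBP1L (0.94) and SH2D7 (0.93). For JMJD6 they were TMEM39A (0.89), CBR1 (0.88) and TRIM47 (0.86). For MLLT3 they were STX7 (0.96), YPEL5 (0.95) and MBTPS1 (0.95). BRD3 had no gene above 0.76 (ZDBF2 and FAM89B), NSD3 was closest to KIAA1549 (0.85), and MED1 to ACTN4 (0.87). Over the 6 group means the closest were CCNT2 to BRD2 (0.991), CBR1 to JMJD6 (0.999), PCDH18 to ZMYND8 (0.996) and BBS4 to MLLT3 (1 when rounded). Each is the highest value among all other tested genes over only 6 points, so values near 1 carry little weight. Even BRD3, with no gene above 0.76 over the arrays, reached 0.996 there (ANKRD10).

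The 7 related lists held 115 tested genes, of which limma called 0 at 75 nM at either time (8 had an unadjusted p below 0.05 after 4 h and 12 after 24 h). For these unadjusted counts, too, the share of all tested genes was not counted. At 468 nM after 4 h, 5 of the 115 were higher and 11 lower, or 13.9% called, against 10.9% of all tested genes. Among them, 2 of 26 tested Mediator subunits rose and 2 fell, with MED26, which links Mediator to elongation factors, at 0.69 ± 0.14 log2 units (limma adjusted p = 0.00139) and MED8 at -0.61 ± 0.11 (adjusted p = 0.000325). The list median was -0.04 against -0.03 over all genes. Of 12 YEATS and super elongation complex genes 1 rose (ELL2, an elongation factor, 0.30) and 3 fell, with MLLT10 at -0.78 and the H3K79 methyltransferase gene DOT1L at -0.54 log2 units. MLLT10 averaged 5 in DMSO and 4.23 at 468 nM, near and below the filter value. The list median there was -0.09. Of 7 genes of other ET-domain interactors 2 fell, BICRAL at -0.72 and ATAD5 at -0.60 log2 units, and the list median was -0.26. Of 18 ZMYND8-associated corepressor genes RCOR1 rose by 0.62 ± 0.12 log2 units (limma adjusted p = 0.000453) and ZNF532 fell by 0.46, of 9 NSD family and H3K36 genes NSD1 fell by 0.60, and of 19 JmjC hydroxylase genes KDM3A rose by 0.47 while JMJD1C (-0.57) and JMJD4 (-0.45) fell. None of 28 other bromodomain genes was called by limma, and 1 had an unadjusted p below 0.05.

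At 468 nM after 24 h, 25 of the 115 genes were called higher and 20 lower, with called genes in each of the 7 lists. That is 39.1%, against 45.6% of all tested genes (20.4% higher and 25.1% lower). JmjC hydroxylase genes had 6 higher and 1 lower of 19, with the histone demethylase genes KDM5B at 0.99 ± 0.24 and KDM7A at 0.83 ± 0.27 log2 units, and a list median of 0.24 against -0.02 over all genes. KDM4C, counted among the 6, averaged 5.13 at 468 nM and 4.77 in DMSO. It may have passed the filter value of 5 through the group where it was higher. ZMYND8-associated corepressor genes had 1 higher and 5 lower of 18, with the NuRD subunit genes CHD3 at -0.90 ± 0.16, GATAD2A at -0.67 ± 0.12 and MTA2 at -0.61 ± 0.09 log2 units, and a list median of -0.03. YEATS and super elongation complex genes had 5 higher and 2 lower of 12, among them ELL2 at 0.81 ± 0.08, AFF1 at 0.62 ± 0.14 and DOT1L at -0.55 ± 0.14. The median of this list was 0. Mediator subunits had 5 higher and 5 lower of 26, with MED11 at 0.80 and the Mediator kinase gene CDK19 at 0.67, against MED22 at -0.73. Other bromodomain genes had 6 higher and 4 lower of 28, with the acetyltransferase gene KAT2B at 1.08 ± 0.15, PBRM1 at 0.67 and ATAD2 at -1.19 ± 0.14 log2 units. NSD family and H3K36 genes had 2 higher (KDM4A at 0.75, KDM2A at 0.45) and 2 lower (among them SETMAR at -0.40) of 9, and of the ET-domain interactors ATAD5 was lower by 1.17 log2 units (limma adjusted p = 2.03e-05).

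**Figure D4:**
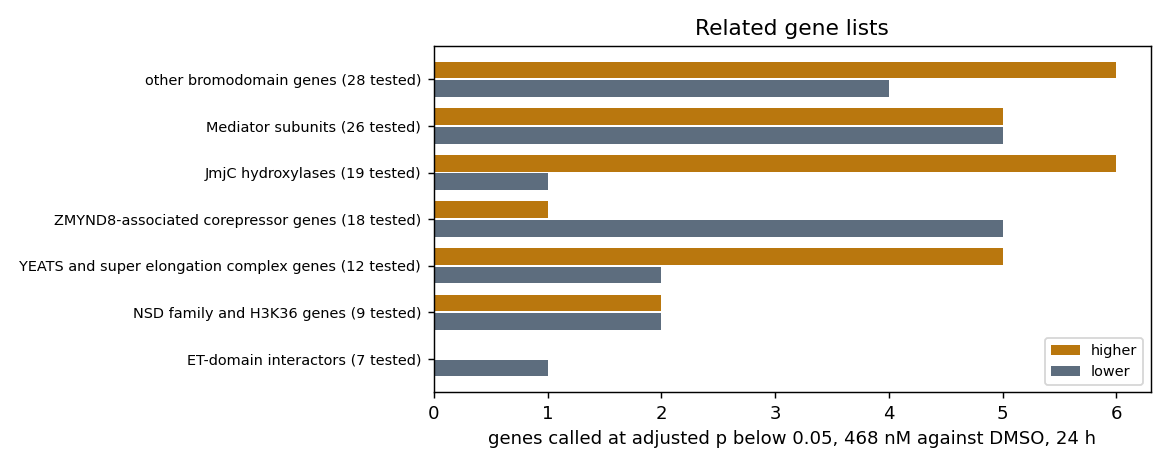
Number of genes of each related list called higher or lower (x axis) at 468 nM against DMSO after 24 h, by limma's adjusted p below 0.05, with the number tested in each list's name. JmjC hydroxylase genes have 6 higher and 1 lower, and ZMYND8-associated corepressor genes 1 higher and 5 lower. KDM4C, among the 6, averaged 4.77 in DMSO, below the filter value of 5.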

How the data were processed

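Total RNA was hybridised to 28 Affymetrix arrays. The authors deposited linear intensities for 53617 probe sets (0.0833 to 14401, 0 missing). Per the submitters' processing notes these come from RMA (robust multi-array average). RMA gives all arrays nearly the same intensity distribution, which hides a change common to most transcripts. The RMA version and the array's genome build were not stated in the sources used here. For arrays the number of arrays limits the precision.

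The intensities were taken to log2. The platform annotation gave 1 symbol to 23871 probe sets, several to 1842 and none to 27904; 22569 symbols were updated through gene IDs to RefSeq (GRCh38.p14) and 1302 kept. The brightest probe set stood for a gene (632 genes had more than 1). limma 3.58.1 (R 4.3.3) fitted the 6 group means over all 28 arrays, leaving 22 residual degrees of freedom, and 9 contrasts were adjusted by Benjamini-Hochberg over 9291 genes, or over 14688 probe sets for single probe sets. Genes and probe sets were kept at log2 above 5 on at least 4 arrays. Exact permutation tests used scipy 1.17.1. The code was tested on simulated data. Standard errors are limma's. Named beside the 7 genes are up to 3 called genes of each related list with the largest change, and the 3 genes with the most similar profile.

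The 7 genes and the lists were chosen with earlier results of these data known. Title codes fall into 5 sets 26 apart, 1 of them without DMSO. The codes were not taken to pair samples. The alternatives were no filter or log2 above 7, repeated quantile normalization, levelling on reference genes, other choices of probe set, log2(intensity + 16), array weights, title-code sets as a block, the compared groups alone, and each array left out.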

Additional observations from a re-analysis of the deposited data

Results flagged for a closer look

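For 3 of the 7 genes the effect of 468 nM differed between 24 h and 4 h by limma's interaction contrast, which called 23.5% of all tested genes. JMJD6 differed by -0.75 ± 0.24 log2 units (SE, adjusted p = 0.0231), with 468 nM against DMSO at -1.13 after 24 h and -0.38 after 4 h. MLLT3 differed by 0.88 ± 0.18 (adjusted p = 0.000753), with 1 after 24 h and 0.12 after 4 h. ZMYND8 differed by 0.85 ± 0.18 (adjusted p = 0.00151), with -0.49 after 24 h and -1.34 after 4 h. The JMJD6 contrast contains the DMSO arrays at 4 h, of which 1 (replicate 4) read 7.1 against 6.44 to 6.57 for the others. With arrays left out the JMJD6 difference spanned -0.91 to -0.61. Its call was kept without replicate 4 and lost without replicate 2 or 3 of that group (limma adjusted p = 0.0534 and 0.0511). In DMSO itself JMJD6, MLLT3 and ZMYND8 stood 0.45, 0.57 and 0.36 log2 units higher at 24 h than at 4 h. Of these DMSO changes only that of MLLT3 was called. In 42 sets of arrays, the 7 genes in the 6 groups, no array stood far from its group by Dixon's 95% value.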

How the results depend on the processing

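Of 17 called changes of the 7 genes, 358 values under 10 other settings, 2 more for BRD2 chosen after seeing the data and 28 arrays left out in turn held 331 with the same direction and call, 27 that lost the call and 0 that turned sign. Another 6 values gained a call in limma. Among these was BRD2 for the 468 nM effect with the mean of all probe sets, the dim set included (-0.39, limma adjusted p = 0.0317). JMJD6 gained a call at 468 nM after 4 h with the title-code sets as a replicate block (-0.43, 0.0477). In DMSO at 24 h against 4 h ZMYND8 gained one with levelling (0.52, 0.0479) and with array weights (0.42, 0.0348). So did MED1 with array weights (-0.26, 0.0352) and JMJD6 without replicate 4 of DMSO at 4 h (0.60, 0.0461). Deviations from group means of arrays in the same title-code set correlated at a median of 0.1 over 66 pairs (-0.13 to 0.34, 33 above 0.1), against -0.02 between sets, and 21 of 28 arrays correlated best with their own set, a hint from the data and not from the design. Counts of called genes moved most where few genes passed.
Without a filter, 28 genes (against 63) were called at 75 nM after 4 h, 18 (81) at 75 nM after 24 h, 123 (238) between the doses at 4 h, 0 (3) for the 75 nM effect at 24 h minus 4 h and 103 (486) for DMSO at 24 h against 4 h. The filter at log2 above 7, which tests fewer genes, gave 616 (1014) at 468 nM after 4 h and 2772 (4233) after 24 h. Only the compared groups gave 31, 52 and 113 at 75 nM after 4 h, 75 nM after 24 h and in DMSO. The replicate block gave 234 at 75 nM after 24 h, 11 for the 75 nM effect and 908 in DMSO. Adding 16 to the intensity gave 126 at 75 nM after 24 h, and array weights 187, with 7 for the 75 nM effect and 830 in DMSO. Causes were not tested. Leaving out arrays gave 39 to 50 at 75 nM after 4 h, 41 to 87 at 75 nM after 24 h, 1 to 5 for the 75 nM effect and 189 to 548 in DMSO.
Levelling on 8 of 12 reference genes, 6 of which were themselves called at 468 nM after 24 h, gave 29 calls at 75 nM after 4 h, 0 for the 75 nM effect and 777 in DMSO. It moved the median of all genes to -0.15, and the share of calls that were higher to 16.8% (36.4% as deposited), at 468 nM after 4 h. At 75 nM after 24 h these were -0.122 and 7.06% (45.7%), at 468 nM after 24 h -0.102 and 32.7% (44.8%), between doses at 4 h -0.123 and 18.7% (44.1%), and in DMSO 0.153 and 92.4% (50.2%).
Only uncalled changes turned sign. With levelling these were MLLT3 at 468 nM after 4 h (0), NSD3 (-0.07) and MED1 (-0.11) at 75 nM after 24 h, MED1 at 468 nM after 24 h (-0.05), BRD2 (-0.03) and BRD3 (-0.04) between doses at 4 h, NSD3 (-0.04) and MED1 (-0.07) for the 75 nM effect, and BRD3 in DMSO (0.15). Repeated quantile normalization gave MLLT3 0.01 at 75 nM after 4 h, MED1 -0.01 at 75 nM after 24 h and BRD3 0.01 in DMSO; adding 16 gave BRD3 0 in DMSO; array weights gave MLLT3 0.02 at 75 nM after 4 h and MED1 0 at 75 nM after 24 h. Counting BRD2-IT1 6 times as BRD2 gave -0.14 and 0 between doses at 4 h and 24 h, and 0.11 and 0.25 for the 75 nM and 468 nM effects, and took the 468 nM change at 24 h to 0.29 (adjusted p = 0.0817).
With arrays left out, MLLT3 spanned -0.11 to 0.12 and NSD3 -0.12 to 0.05 at 75 nM after 4 h. At 75 nM after 24 h NSD3 spanned -0.05 to 0.13, MED1 -0.02 to 0.02 and ZMYND8 -0.16 to 0.02. At 468 nM after 24 h NSD3 spanned -0.13 to 0.05 and MED1 -0.01 to 0.12. MED1 spanned -0.02 to 0.12 between doses at 24 h, NSD3 -0.03 to 0.16 for the 75 nM effect and BRD3 -0.12 to 0.08 in DMSO.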
